A study of Sus scrofa with 12 samples.

Results

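The transcripts described here are those whose level in pig back muscle was lower at 3 days after birth than at any of the other 3 stages measured. They were chosen from their own values. On the scale log2(intensity + 21), the mean at 3 days had to lie at least 0.8 below the mean of each other stage, and the highest of the 3 arrays at 3 days had to lie below the lowest of the other 9 arrays. Of 23999 probe sets that are no controls, 28 (0.117%) met both conditions, 3 were set aside because their 2 gene symbols are left out by the rule, and 25 probe sets remained. A probe set is the group of short oligonucleotides that measures 1 transcript on the array. The platform annotation gives 1 gene symbol to 9 of the 25 (PDZRN3, FAM69A, ZNF277, GBP2, CAST, EIF2AK2, PGM3, CFDP1 and SDC2) and does not list the other 16 (64%), against 57.2% not listed among all 23999. The differences from 3 days chose these transcripts and are given below as a description, with no test.

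The study followed gene expression through development in a back muscle, the longissimus dorsi, of pigs of the Chinese Meishan breed. Its groups were fetuses at 65 days post coitus (65dpc) and pigs at 3, 60 and 120 days after birth (3d, 60d and 120d) and fed by standard commercial practice, with 3 arrays labelled biological replicates in each group. Fetuses of 1 sow counted as 1 individual, and the labels used here give no sex, litter or hybridization date. The tissue is whole muscle, so fewer cells of a type and less RNA per cell cannot be told apart.

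In pigs the number of muscle fibres is largely set before birth, and growth after birth proceeds mainly by enlargement of existing fibres with the addition of nuclei from satellite cells. Around birth the muscle takes over load bearing and its own heat production, and its contractile and metabolic proteins change over the following weeks. The named genes with a trough at 3 days come from several cell functions: protein turnover (PDZRN3, CAST), the interferon response (GBP2, EIF2AK2), chromatin (ZNF277, CFDP1), and sugar metabolism, the endoplasmic reticulum and the cell surface (PGM3, FAM69A, SDC2).

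Array medians lay between 49.1 and 52.6 intensity units. Arrays of 1 stage correlated across probe sets with r between 0.905 and 0.985, and arrays of different stages with r between 0.714 and 0.975. The muscle genes CKM, DES, TTN and TNNT3 were bright on all 12 arrays, from 1090 for the dimmest DES value to 9140 for the brightest CKM value, while the myosin gene MYH2 ranged from 170 to 8010. One array stood apart most strongly, in a way that touches 2 members. The list of interferon response and antigen presentation genes, 42 measured of 60, summed to 40640 on the third fetal array, against 7612 and 6979 on the other fetal arrays, and this array was the highest fetal one for 41 of the 42 genes. GBP2 and EIF2AK2 belong to that list and are given with and without that array.

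**Figure D1:**
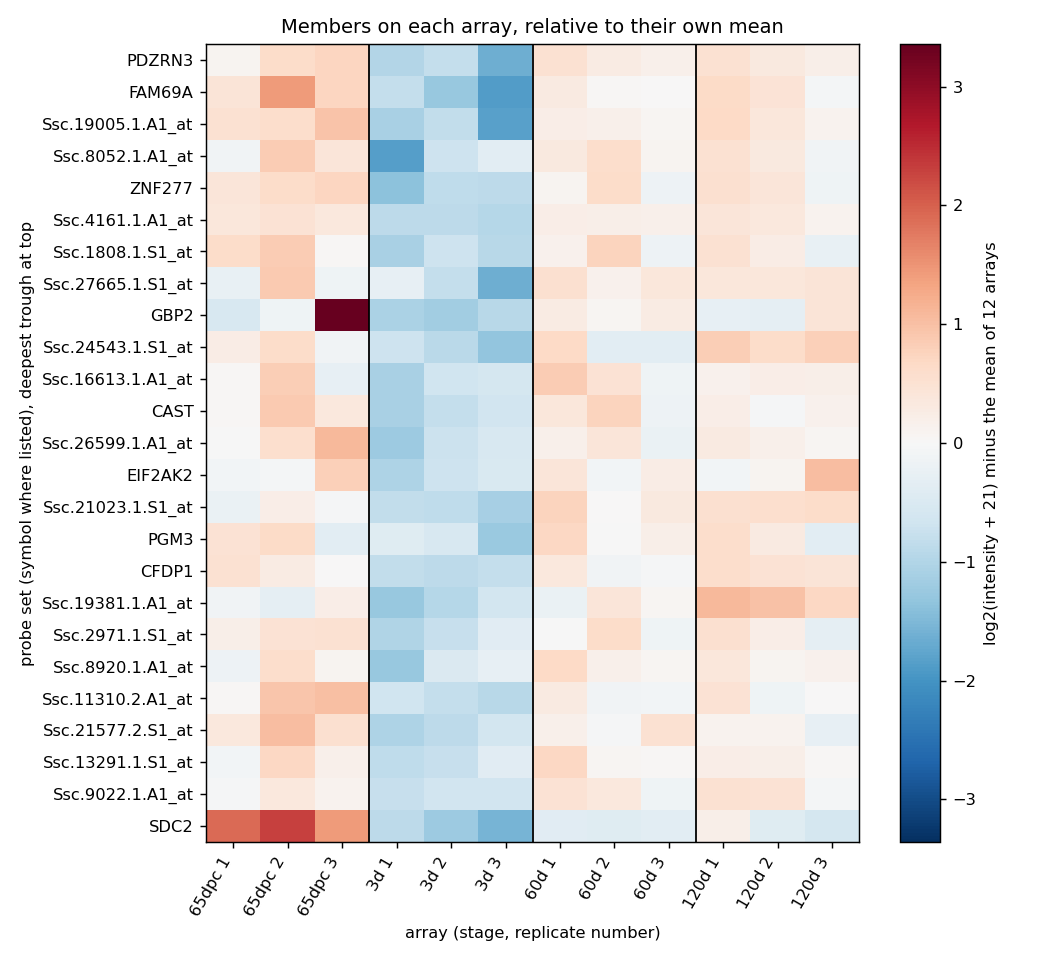
Level of the 25 probe sets (rows, deepest trough at the top) on each of the 12 arrays (columns, 3 per stage in order of age), as log2(intensity + 21) minus the probe set's own mean over all arrays. Blue is below and red above that mean. The 3 columns at 3 days are the lowest in every row, as the rule requires, SDC2 is deep red in the fetus only, and GBP2 is dark red only on the third fetal array.

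PDZRN3, a ubiquitin ligase with PDZ domains that in mouse is needed for myoblast differentiation and acts on the receptor kinase MuSK at the nerve-muscle junction, had the deepest trough. Its intensity was 488, 707 and 762 on the 65dpc arrays, 218, 254 and 130.3 at 3d, 655, 549 and 510.1 at 60d, and 662, 577 and 527 at 120d. The 3 arrays at 3d were apart from the others, which covered a similar range at 65dpc, 60d and 120d. The 3d mean was 200.5 ± 63.4 (SD, n = 3), and the means of the other stages were 652 ± 145.0 at 65dpc, 572 ± 75.0 at 60d and 588 ± 68.3 at 120d. The trough depth, meaning the smallest of the 3 differences of the other stage means from the 3d mean, was 1.46 log2 units.

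A second probe set, Ssc.19005.1.A1_at, carries the same cluster number in its identifier as the PDZRN3 probe set but has no listed symbol. It read 443, 468 and 607 at 65dpc, 131, 162 and 70.2 at 3d, 359, 344 and 316 at 60d, and 493, 399 and 330 at 120d. Its depth was 1.4 log2 units, and like PDZRN3 its lowest array was the third one at 3d. Whether both measure 1 transcript is not annotated, so they are not counted as independent here.

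CAST encodes calpastatin, the endogenous inhibitor of the calpain proteases that cleave proteins of the muscle cytoskeleton. Its member probe set read 292, 540.4 and 365 at 65dpc, 122, 153 and 172 at 3d, 375, 485 and 249 at 60d, and 336, 272 and 314 at 120d. The 3d arrays were all below the others, and the other 3 stages overlapped. The means at 65dpc, 60d and 120d were 2.68, 2.48 and 2.06 times the 3d mean, and the depth was 0.96.

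ZNF277, a zinc finger protein that in mouse binds the Polycomb protein BMI1, read 933, 1067 and 1167 at 65dpc, 256, 377 and 365 at 3d, 740, 1067 and 615 at 60d, and 1025, 931 and 620.3 at 120d. It was the brightest named member at every stage, with a 3d mean of 333 ± 66.7 and a depth of 1.21. CFDP1, a chromatin-bound protein first described in craniofacial development, read 576, 486 and 404 at 65dpc, 215, 207 and 220 at 3d, 510, 363 and 385 at 60d, and 614, 566 and 547 at 120d. Its 3 arrays at 3d lay close together (SD 6.18 around a mean of 214), and its depth was 0.89.

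GBP2 is a guanylate-binding GTPase that interferons induce. It read 48.0, 68.7 and 1001 at 65dpc, 26.4, 23.4 and 31.0 at 3d, 99.7, 83.7 and 99.8 at 60d, and 61.5, 60.4 and 114 at 120d. The third fetal array was far above all others, while the other 2 fetal arrays were close to 2 of the arrays at 120d. The fetal mean was 13.8 times the 3d mean with that array and 2.17 times without it. At 3d GBP2 was dim, at a mean of 26.9 and percentile 30.4 of the probe sets, and whether it stood above background there was not measured, so both ratios are uncertain. EIF2AK2, also called PKR, is a kinase that double-stranded RNA activates and that halts translation through the initiation factor eIF2 alpha. It read 74.4, 75.6 and 155 at 65dpc, 28.2, 42.0 and 50.1 at 3d, 113, 74.7 and 100.4 at 60d, and 74.0, 87.9 and 186 at 120d, with its highest values on the third arrays of 65dpc and 120d.

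The depth was 1.02 for GBP2 and 0.94 for EIF2AK2 with all arrays. Without the third fetal array it was 0.72 for GBP2 and 0.67 for EIF2AK2, and without the third array at 120d it was 0.78 for GBP2 and 0.75 for EIF2AK2, so neither gene met the threshold of 0.8 in these cases. EIF2AK2 also missed it without the first array at 3d, with a depth of 0.79. Immune cell markers, 12 measured of 24 and none at 0, summed to 603 to 3147 in the fetus, 866 to 1506 at 3d, 842 to 1088 at 60d and 841 to 1486 at 120d, and their part in the values of GBP2 and EIF2AK2 was not tested.

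SDC2, syndecan-2, is a heparan sulfate proteoglycan of the cell surface that binds matrix proteins and growth factors. It read 776, 1034 and 552 at 65dpc, 94.5, 71.5 and 52.0 at 3d, 143, 139 and 145 at 60d, and 222, 139 and 121 at 120d. It was foremost a fetal transcript: its 65dpc mean was 10.8 times the 3d mean, and its means at 60d and 120d were 1.96 and 2.21 times the 3d mean. Its depth of 0.83 was the smallest of the 25. Fibroblast markers, 10 measured of 14 and none at 0, also had their highest sums in the fetus. They gave 11980 to 18140 at 65dpc, 6089 to 7454 at 3d, 6432 to 9519 at 60d and 7438 to 10270 at 120d. This was not particular to fibroblasts. Satellite cell markers summed to 1728 to 3404 at 65dpc and 499.9 to 1253 at 3d. Cartilage and bone markers summed to 1485 to 3299 at 65dpc and 402.5 to 479.7 at 3d. Adipocyte markers went the other way, with 1211 to 1863 at 65dpc and 3279 to 4494 at 3d. The part of any of these lists in the SDC2 course was not tested.

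FAM69A, a cysteine-rich protein of the endoplasmic reticulum, read 286, 600.5 and 354 at 65dpc, 109.6, 74.5 and 41.0 at 3d, 259, 213 and 212 at 60d, and 334, 292 and 199 at 120d. Its depth of 1.43 was second to that of PDZRN3. PGM3, the phosphoacetylglucosamine mutase on the way to UDP-N-acetylglucosamine, the sugar donor of many glycans, read 329.9, 373 and 177 at 65dpc, 167, 151 and 85.7 at 3d, 382, 229 and 268 at 60d, and 357, 287 and 176 at 120d. Its depth was 0.91, but its highest 3d array lay only 0.07 log2 units below the lowest other array, so it met the second condition narrowly.

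**Figure D2:**
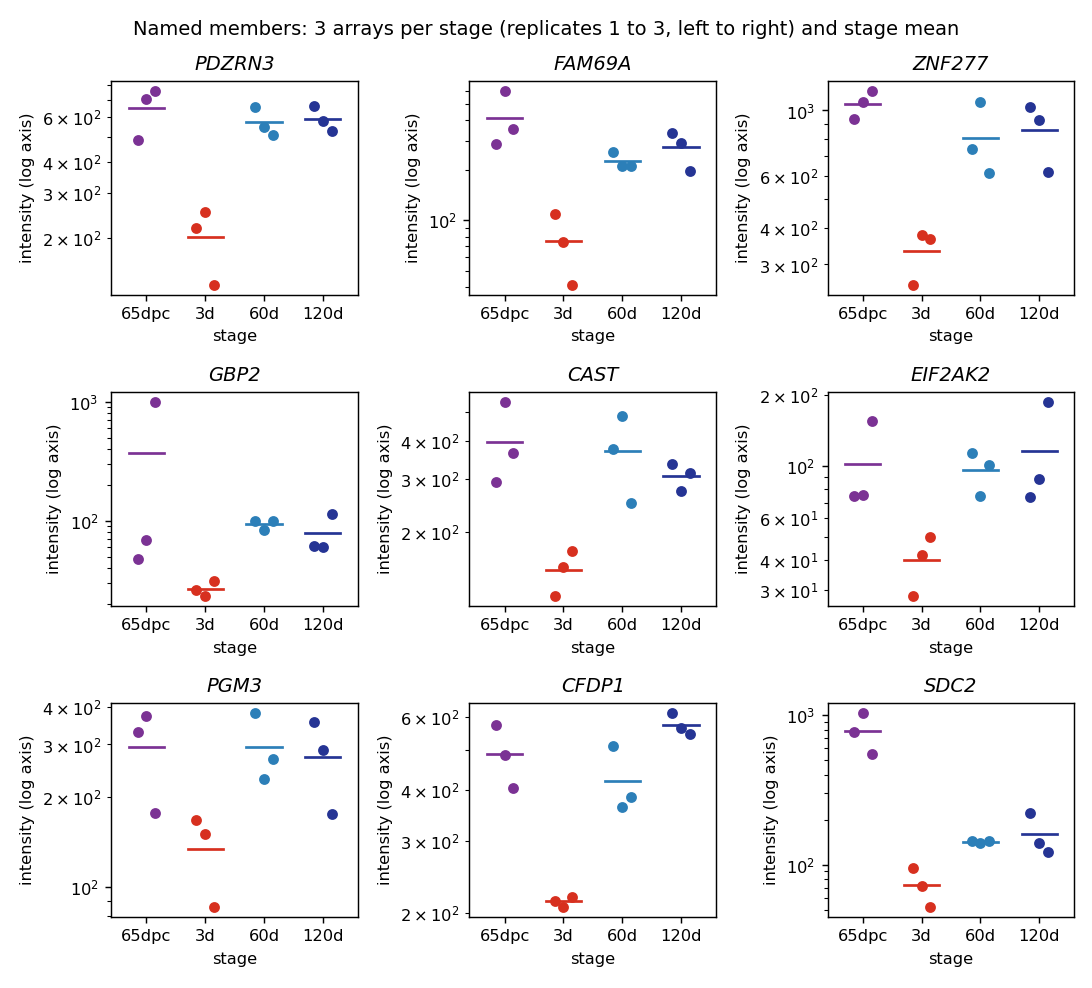
Intensity (log axis, a separate range for each gene) of the 9 named members on the 3 arrays of each stage, with the arithmetic mean of each stage as a line. The 3d arrays are the lowest in each panel. SDC2 is highest in the fetus, the GBP2 fetal mean lies far above 2 of its 3 arrays, and the 2 lowest other PGM3 arrays are close to the highest 3d array.

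The 16 probe sets without a listed symbol covered intensities from 39.3 to 2297 at 3d and from 82.5 to 5120 in the fetus. Ssc.4161.1.A1_at had the widest gap of all 25 between its highest 3d array and its lowest other array, 1.01 log2 units. It read 686, 737 and 666 at 65dpc, 273, 272 and 259 at 3d, 608, 595 and 591 at 60d, and 691, 675 and 569.9 at 120d, so each stage was tight. At the other end stood Ssc.27665.1.S1_at, the brightest of the 25, with 2331, 5120 and 2510 at 65dpc, 2297, 1596 and 868 at 3d, 3999, 3036 and 3599 at 60d, and 3618, 3585 and 3725 at 120d. Its highest 3d array lay 0.02 below its lowest fetal array.

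Over all 25, the depth ran from 0.83 to 1.46 with a median of 0.95, and 9 were deeper than 1. The median difference from 3d was 1.27 for 65dpc, 1.05 for 60d and 1.07 for 120d, where the medians over all probe sets were -0.06, -0.01 and 0.00. In intensity, the median ratio of stage means to the 3d mean was 2.60 at 65dpc, 2.34 at 60d and 2.41 at 120d. The fetus was the highest stage for 15 members, 120d for 7 and 60d for 3. By stage mean, the median member stood at percentile 90.1 of all probe sets in the fetus, 77.1 at 3d, 89.0 at 60d and 88.4 at 120d. All 25 passed the filter on low values, which works on single arrays and kept 16166 of all probe sets (67.4%). By the 3d mean, 4 members stood below percentile 50, and GBP2, at percentile 30.4, was the only one below percentile 40. On single arrays GBP2 exceeded percentile 40 on none of those at 3d, so it passed that filter through the other stages. On all 3 arrays at 3d, 23 members exceeded it.

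The members did not all share 1 order among the arrays of a stage, least of all at 3d. At 3d the lowest array was replicate 1 for 13 members, replicate 3 for 10 and replicate 2 for 2. PDZRN3, FAM69A, PGM3 and SDC2 were lowest on replicate 3, while ZNF277, CAST and EIF2AK2 were lowest on replicate 1. The highest array at 3d was replicate 3 for 12, replicate 1 for 8 and replicate 2 for 5. In the other stages replicate 2 was the highest fetal array for 15, replicate 1 the highest array at 60d for 15, and replicate 1 the highest at 120d for 19. The lowest array was replicate 1 in the fetus for 17, replicate 3 at 60d for 15, and replicate 3 at 120d for 16. More members thus shared an extreme array in these stages than at 3d. Shares over all probe sets are not given beside these counts. When each of the 12 arrays was left out in turn and the rule applied again, 7 probe sets remained members every time, namely PDZRN3, FAM69A, ZNF277, CAST, Ssc.19005.1.A1_at, Ssc.4161.1.A1_at and Ssc.1808.1.S1_at. The other 18 were lost in 1 to 5 of the 12 cases. The deviations from the stage mean correlated at 0.646 across probe sets between the second fetal array and the first at 60d, the arrays on which 15 of the 25 members each were highest within their stage. Without both, 25 probe sets met the rule, of which 16 were among the 25 described here.

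The same conditions applied to the other stages place the number in context, as a description. With 65dpc as the single low stage 740 probe sets (3.08%) met them, with 3d 28 (0.117%), with 60d 0 and with 120d 20 (0.0833%). A peak of the same size was met by 1621 (6.75%) at 65dpc, 87 (0.363%) at 3d, 6 (0.0250%) at 60d and 25 (0.104%) at 120d. A trough at 3d was thus less frequent in these arrays than a peak at 3d, and both were below the numbers for the fetus.

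Whether the later muscle differed from the fetal level was tested by limma across all 16166 probe sets kept. The contrasts compare the means of 65dpc, 60d and 120d, and the spread comes from all 12 arrays, those at 3d included. The rule did not compare these stages with each other, but it used their values, since each had to lie above 3d. The differences, intervals and p-values of the members are therefore not independent of how they were chosen. At 60d against 65dpc, 1 of the 25 members was called at an adjusted p under 0.05, SDC2, and it was lower, beside 39.1% called among all probe sets (18.7% higher and 20.4% lower). With SDC2, 3 members had an unadjusted p under 0.05, beside 48.7% of all probe sets. The members' median difference was -0.21, with 18 below 0 and 7 above, against 0.02 over all probe sets, and the median size of the difference was 0.21 for the members and 0.40 for all. The arrays of the 2 stages did not overlap in 4 members, FAM69A, SDC2, Ssc.19005.1.A1_at and Ssc.4161.1.A1_at, beside 45.8% of all probe sets.

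SDC2 was lower at 60d than at 65dpc by a log2 difference of -2.26 ± 0.26 (SE, limma adjusted p = 5.52e-05), and lower at 120d than at 65dpc by -2.15 ± 0.26 (adjusted p = 6.2e-05). It lay below every fetal array on all 6 later arrays. For FAM69A the difference at 60d was -0.74 ± 0.31 (95% interval -1.42 to -0.07, adjusted p = 0.0756), which did not pass the test although the arrays were apart. Without the first fetal array it was -0.96 and passed. For PDZRN3 it was -0.17 (95% interval -0.72 to 0.38, limma adjusted p = 0.624), for CAST -0.11 (-0.69 to 0.47) and for PGM3 0.03 (-0.69 to 0.75). A p that misses the threshold does not show equal levels, and the lower bounds of these intervals reach -0.69 or below. GBP2 had the widest interval, -2.27 to 0.90 around -0.68. Without the third fetal array its difference at 60d was 0.55 (limma adjusted p = 0.0636), on the other side of 0.

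At 120d against 65dpc, 4 of the 25 were called, 2 higher and 2 lower, beside 48.4% of all probe sets (23.4% higher and 25.0% lower). Besides SDC2 these were 3 probe sets without a listed symbol, singled out because they passed the test. Ssc.19381.1.A1_at was higher at 120d by 0.98 ± 0.24 (limma adjusted p = 0.00496): it read 657, 614 and 491 at 120d, against 275, 238 and 353 at 65dpc. Ssc.21023.1.S1_at was higher by 0.59 ± 0.22 (adjusted p = 0.0392), with 1248, 1276 and 1304 at 120d, against 727, 998 and 819 at 65dpc. Ssc.21577.2.S1_at was lower by a difference of -0.66 ± 0.23 (adjusted p = 0.0335), with 312, 316 and 236 at 120d, against 374, 618 and 428 at 65dpc. In each of the 3 the groups did not overlap. With SDC2 these were 4 members whose arrays were apart, beside 60.7% of all probe sets. The calls of Ssc.21023.1.S1_at and Ssc.21577.2.S1_at were lost in 10 and 9 of 25 alternative settings, among them every case that left out an array at 120d.

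Of the named members other than SDC2, none passed the test at 120d against 65dpc. The differences were -0.13 for PDZRN3, -0.52 for FAM69A, -0.32 for ZNF277, -0.93 for GBP2, -0.32 for CAST, 0.13 for EIF2AK2, -0.09 for PGM3 and 0.24 for CFDP1, with limma adjusted p from 0.188 for FAM69A to 0.851 for PGM3. The median over the 25 was -0.13, against 0.00 over all probe sets, and the median size 0.30 against 0.47. The 95% interval lay within 1 log2 unit of 0 for 17 members, and for 19 at 60d against 65dpc. No such share over all probe sets is given beside these counts. The counts therefore do not tell whether the members lay closer to the fetal level than other probe sets. Since both stages had to lie above 3d to enter, the small share of calls is a description of these members and was not tested against the background.

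**Figure D3:**
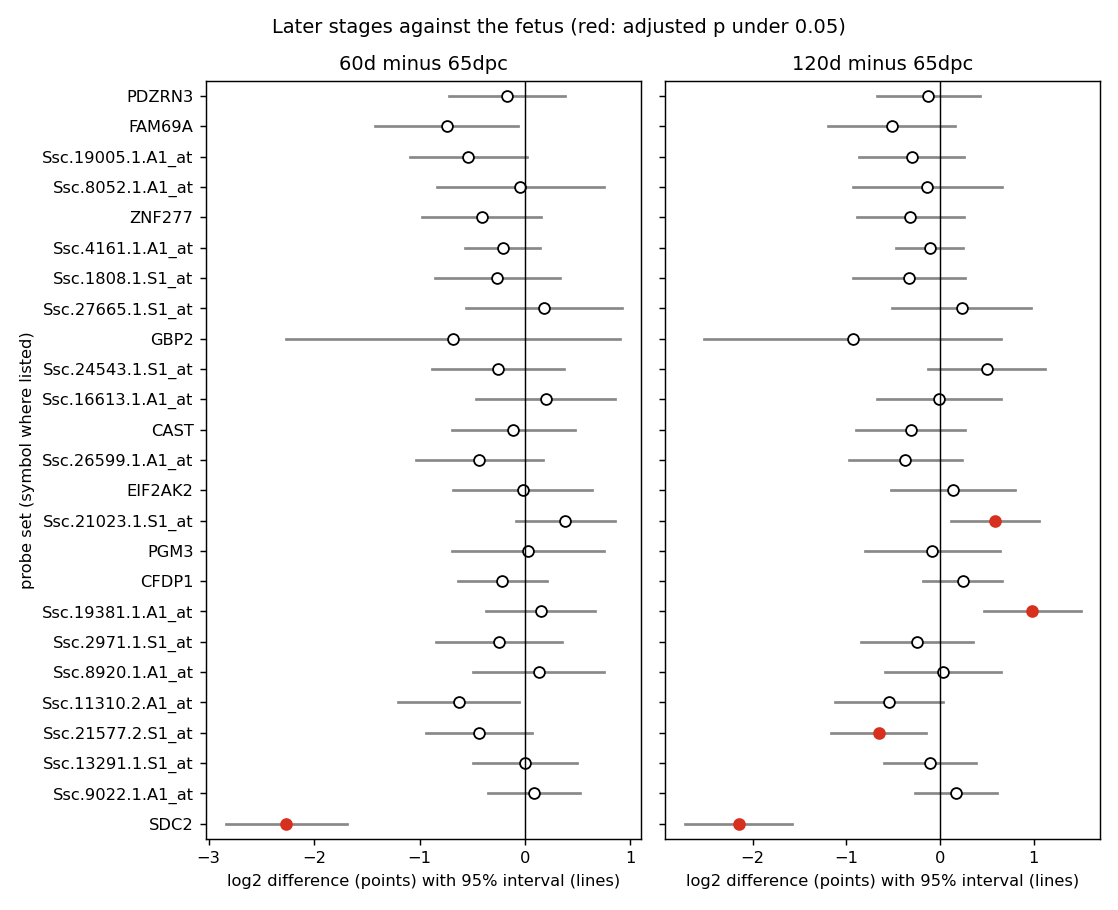
Log2 difference of 60d minus 65dpc (left) and of 120d minus 65dpc (right) for each of the 25 probe sets, with the 95% interval of the limma fit as a line and calls at an adjusted p under 0.05 in red. SDC2 is far to the left in both panels at -2.26 and -2.15, 3 probe sets without a symbol are red on the right only, and the other probe sets did not pass the adjusted test.

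Between 120d and 60d, 0 of the 25 members and 0 of all 16166 probe sets (0%) were called by limma. At an unadjusted p under 0.05 there were 3 members and 1021 of all probe sets (6.32%). CFDP1 was among the 3, with a difference of 0.45 (95% interval 0.03 to 0.87, limma adjusted p = 0.774) and 614, 566 and 547 at 120d, against 510, 363 and 385 at 60d, groups that did not overlap. Arrays of the 2 stages were apart for 2 members, CFDP1 and Ssc.19381.1.A1_at, beside 13.9% of all probe sets.

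Other probe sets of the named genes give a measure that the choice of members did not use, although they were hybridised with the same RNA. There were 7, of which 4 for CAST and 1 each for FAM69A, CFDP1 and SDC2, and none for the other 5 genes. All 4 of CAST had their lowest mean at 3d, as had 18.3% of all probe sets, with depths of 0.23, 0.03, 0.05 and 0.34. The probe set with a depth of 0.03 read 31.6, 29.0 and 124.5 at 65dpc, and without the third of these arrays its lowest stage was the fetus. The one with a depth of 0.05 was dim and did not pass the filter. The brightest of them read 109, 133 and 202 at 3d, and at 65dpc it read 168, 311 and 242, so its arrays overlapped between stages. The SDC2 probe set averaged 686 at 65dpc, 101 at 3d, 151 at 60d and 155 at 120d, with a depth of 0.49 and arrays that overlapped after birth.

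The other CFDP1 probe set showed no trough, with means of 588 at 65dpc, 473 at 3d, 429 at 60d and 402 at 120d. The other FAM69A probe set was dim, between 38.5 and 72.5, and its lowest stage was the fetus, at a mean of 40.8, against 55.0 at 3d. For these 2 genes the trough rests on 1 probe set of 2. Probe sets of a gene can measure different transcript forms, and which ones these measure was not used here.

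Identifiers that share a cluster number are a looser link. Of the 25 members, 7 had a partner with the same number. Of the partners 9 were no members, the 4 of CAST included, and all 9 had their lowest mean at 3d, beside 18.3% of all probe sets. Without the third fetal array, a setting added after seeing the data, 7 did. Of the 9, 4 had a depth under 0.1, 1 did not pass the filter, and the 3d arrays were apart in 3. The 18.3% is for the lowest mean at any depth, so it is no measure for these 3. The partner of ZNF277, Ssc.1012.2.S1_at, averaged 236 at 65dpc, 138 at 3d, 250.5 at 60d and 278 at 120d, with a depth of 0.67 and the 3d arrays apart. The partner of Ssc.21577.2.S1_at averaged 343 at 65dpc, 139 at 3d, 245 at 60d and 247 at 120d, with a depth of 0.69, also with the 3d arrays apart.

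**Figure D4:**
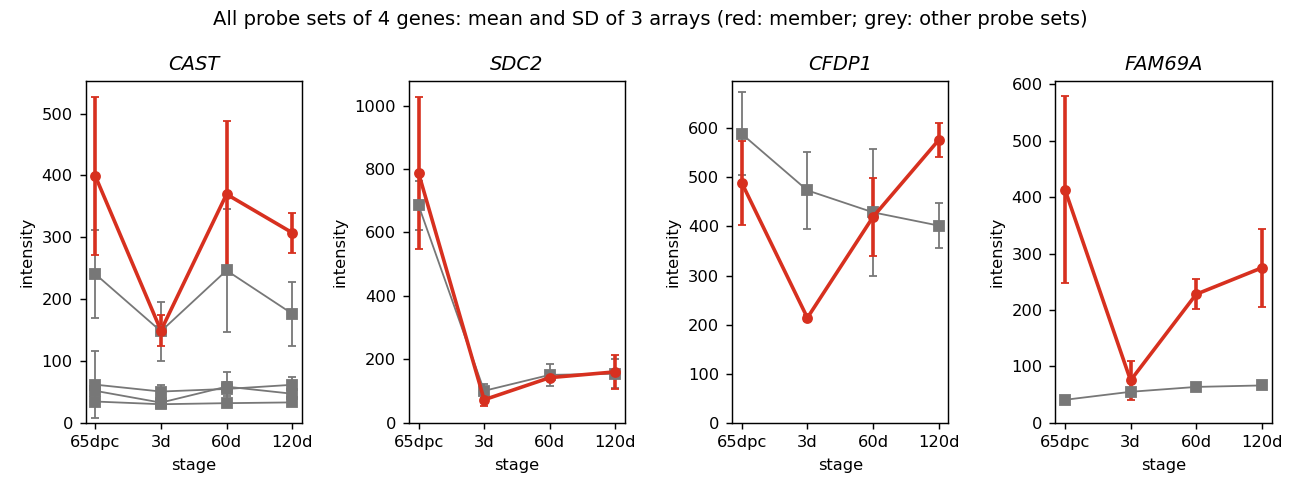
Mean intensity and SD of 3 arrays by stage for every probe set of CAST, SDC2, CFDP1 and FAM69A, with the member in red and other probe sets in grey. The grey CAST and SDC2 lines are lowest at 3d, and the grey CFDP1 and FAM69A lines are not.

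The probe sets just outside the rule were of 2 kinds. There were 55 with the 3d arrays apart and a depth between 0.6 and 0.8, of which 21 have a symbol. The closest with a symbol was SLC35F5 at 0.79, which read 102, 141 and 175 at 3d, with 178 as its lowest value elsewhere. SMARCA2, an ATPase of the chromatin-remodelling SWI/SNF complex, was in the same range with a depth of 0.63 and means of 628 at 65dpc, 338 at 3d, 557 at 60d and 536 at 120d.

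The second kind were 23 probe sets deep enough but with arrays that overlapped, of which 19 have a symbol. Of the 23, 14 overlapped through the first or second fetal array alone. On the interferon list were 9 of the 23, from 7 genes (GBP1, IFI44L, IFIT3, SLA-DQA1, SLA-DRA, CXCL9 and SLA-DQB1), and all 9 overlapped through those fetal arrays, CXCL9 also through 1 array at 60d. IFI44L read 102, 125 and 1106 at 65dpc, 72.1, 90.9 and 119 at 3d, 448, 529.6 and 473 at 60d, and 491, 457 and 840.2 at 120d, so its fetal mean was carried by the third array. A further 4 overlapped through the second array at 60d alone, among them MSTN, myostatin, the inhibitor of muscle growth. It read 537.5, 1136 and 384.6 at 65dpc, 80.7, 65.1 and 14.6 at 3d, 257, 26.1 and 159.5 at 60d, and 238.5, 247.6 and 281.9 at 120d. MSTN was thus highest in the fetus. Another MSTN probe set had a depth of 0.69, under the threshold, and its arrays overlapped as well.

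**Figure D5:**
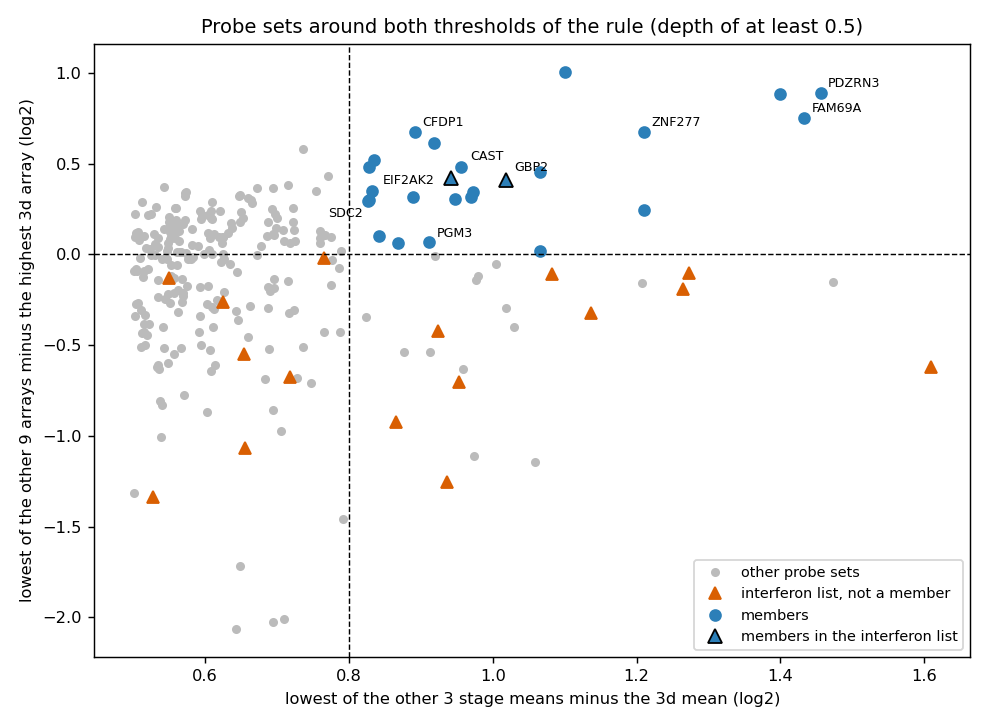
Each probe set with a depth of at least 0.5, by its depth (x axis, log2) and by the gap between the lowest of the other 9 arrays and the highest 3d array (y axis, log2), with the thresholds 0.8 and 0 as dashed lines and the 3 probe sets of symbols left out by the rule not drawn. Members are blue, and genes of the interferon list are triangles, of which GBP2 and EIF2AK2 are members and 9 probe sets lie right of 0.8 but below 0.

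Across the interferon list, 29 of the 42 measured genes (69%) had their lowest mean at 3d, beside 1049 of 5765 named genes (18.2%). The third fetal array decided this count. Without it, an alternative added after seeing the data, 9 of the 42 (21.4%) were lowest at 3d, beside 983 of all named genes (17.1%), and 30 were lowest in the fetus. The median difference of 65dpc from 3d over the list was 0.41 with that array and -0.40 without it. The later stages did not depend on it: the median was 0.68 for 60d minus 3d and 0.90 for 120d minus 3d, with every array above every 3d array for 19 genes (45.2%) at 60d and 28 (66.7%) at 120d, beside 8.92% and 14.8% of all named genes. Summed over the list, the arrays gave 9137 to 10390 at 3d, 9294 to 16490 at 60d and 13110 to 20970 at 120d. By the test, 6 genes of the list (14.3%) were higher and 2 (4.76%) lower at 60d against 65dpc, beside 19.7% and 18.2% of all named genes. At 120d against 65dpc, 9 (21.4%) were higher and 2 (4.76%) lower, beside 24.2% and 22.7%. Both comparisons include the third fetal array, and counts of calls without it are not given. These shares therefore do not tell whether the list was called less often than other genes.

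None of the 9 named members was on any of the other lists of pathways or cell type markers. The 16 members without a listed symbol could not be looked up in the lists. The lowest mean was at 3d for 14 of 29 chromatin and transcription genes (48.3%) and 12 of 28 ubiquitin ligase and autophagy genes (42.9%). It was at 3d for 5 of 37 extracellular matrix genes (13.5%), 0 of 34 genes of energy metabolism and 0 of 7 clock genes. The share was 18.2% among all named genes. These counts take any depth above 0, however small. In the chromatin list the median differences from 3d were 0.62 for 65dpc, 0.13 for 60d and 0.03 for 120d. For the ubiquitin and autophagy list they were 0.10, 0.35 and 0.18, and for all named genes -0.07, -0.03 and -0.03. In the ubiquitin and autophagy list the deepest was USP9X, a deubiquitinase, with means of 718 at 65dpc, 368 at 3d, 610.4 at 60d and 536 at 120d and a depth of 0.52. LAMP2, a lysosomal membrane protein, followed with a depth of 0.46 and means of 1118 at 65dpc, 634 at 3d, 939 at 60d and 884 at 120d. The lists were chosen with earlier results of these arrays known and carry no test here.

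Nerve and Schwann cell markers, 5 measured of 16 and none at 0, summed to 750.3 to 1054 at 65dpc, 478 to 655 at 3d, 525 to 719 at 60d and 638 to 752 at 120d, and 2 of the 5, S100B and MBP, were lowest at 3d. Satellite cell markers, 5 measured of 12 and none at 0, had their highest sums in the fetus and none of the 5 was lowest at 3d. The part of either marker list in the troughs was not tested. The actin 3-prime over 5-prime signal ratio, which grows as RNA is degraded, was 2.45 ± 0.168 at 65dpc, 3.61 ± 1.06 at 3d, 5.10 ± 1.17 at 60d and 5.08 ± 0.895 at 120d (SD, n = 3 each), so 3d lay between the fetus and the later stages. The hybridization controls, RNAs of known amount added before hybridization, averaged 9.68 at 65dpc, 9.96 at 3d, 10.06 at 60d and 10.12 at 120d on the log2 scale.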

How the data were processed

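RNA of 12 muscle samples was hybridised to Affymetrix porcine arrays, 1 per sample, per the labels' protocols. The authors deposited 1 linear intensity per probe set and array, from GCOS 1.4 per the submitters' processing notes. How probes were summarised and scaled is not stated in the sources at hand. No further normalization followed, since array medians differed by at most 1.07-fold.

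Of 24123 probe sets, 124 controls were set aside. Values were taken as log2(value + 21). A probe set entered the tests if it exceeded percentile 40 of the array on 3 or more arrays. limma was fitted with 1 mean per stage to all 12 arrays (variance trend, 8 residual and 4.26 prior degrees of freedom), with two-sided tests, Benjamini-Hochberg adjustment over 16166 probe sets and calls at 0.05. Differences from 3 days chose the members and were not tested. On simulated data of 16166 probe sets with 3 arrays per stage, the fit recovered 65% of differences of 1 log2 unit and 98% of 2 at 60d against 65dpc, 64% and 97% at 120d against 65dpc, and 62% and 95% at 120d against 60d, with 10, 11 and 7 false calls. Only a small part of the probe sets differed in each simulation. In the data 39.1% were called at 60d against 65dpc and 48.4% at 120d against 65dpc. The simulated shares thus do not tell how many real differences these contrasts found. The number of arrays limits the precision. Symbols come from the platform annotation (1 symbol for 10069 probe sets, several for 198, 13732 not listed), and all 9 named members were found in RefSeq, with 0 symbols changed. A listed gene stands by its kept probe set with the highest mean.

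By the naming rule all named members were described on every array. The unnamed ones were chosen after their values were seen, because they passed a test or stood at an end of the rule. The members, lists and alternatives were chosen with earlier results of these data known. Same-numbered arrays correlated between -0.424 and 0.297 in their deviations from stage means, 8 of 18 pairs above 0.1, so numbers were not taken as pairs. Sequences were not used here. Software was R 4.3.3, limma 3.58.1, Python 3.11.15, pandas 2.3.3, NumPy 2.4.6 and matplotlib 3.10.9.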

Additional observations from a re-analysis of the deposited data

How the results depend on the processing

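The number of members depended on the thresholds and on single arrays. Against 25, there were 55 with a pseudocount of 1, 13 with a pseudocount of 51, 9 with a depth of at least 1.0, 80 with at least 0.6, and 18 to 48 when 1 array was left out, the most without replicate 3 at 3 days and 42 without replicate 2. Quantile normalization gave 20, of which 19 were members before, and centring on the 18 hybridization controls 31, of which 16 were. That centring shifts the median of all probe sets by -0.35 at 60d against 65dpc and -0.43 at 120d against 65dpc. Under it 8 members were lower at 60d against 65dpc and 10 at 120d against 65dpc, and 0 were higher. Under it FAM69A and ZNF277 passed in both comparisons and CAST at 120d, while Ssc.19381.1.A1_at lost its call.

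At 60d against 65dpc, leaving out 1 array gave 1 to 3 calls, with 3 without 65dpc replicate 1. At 120d against 65dpc, quantile normalization and the fit with the replicate number as a block each gave 2 calls, and leaving out 1 array 2 to 4. At 120d against 60d there were 0 calls in every setting run. Both SDC2 calls against the fetus were kept in 25 of 25 alternatives, and no called difference changed sign. Without 65dpc replicate 3, added after seeing the data, 9 interferon list genes were lowest at 3 days, against 29 with it, and the GBP2 ratio of fetal to 3 days mean was 2.17, against 13.8. With 3 arrays per stage the median 95% interval of a member reached 0.58 log2 units to either side.

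Several differences that did not pass the test changed sign, and the cause was not tested. At 60d against 65dpc, EIF2AK2 was 0.055 under quantile normalization, 0.0014 under median centring and 0.16 under array weights, which also gave PDZRN3 0.0073, GBP2 0.11 and PGM3 -0.11. Centring on the hybridization controls gave PGM3 -0.34 and Ssc.19381.1.A1_at -0.23. Without both 65dpc replicate 2 and 60d replicate 1, CAST was 0.089. At 120d against 65dpc, PGM3 was 0.068 under quantile normalization and 0.11 without both arrays. EIF2AK2 was -0.0078 without both arrays and -0.30 under the control centring, which gave CFDP1 -0.19, and PDZRN3 was 0.12 under array weights. At 120d against 60d, the control centring gave PDZRN3 -0.015, array weights gave EIF2AK2 -0.025 and PGM3 0.029, and leaving out both arrays gave PGM3 0.0797.

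Leaving out 1 array at a time also crossed 0. At 60d against 65dpc the range was -1.40 to 0.55 for GBP2, with the positive value without 65dpc replicate 3, -0.32 to 0.14 for CAST, -0.17 to 0.27 for EIF2AK2, -0.27 to 0.22 for PGM3 and -0.013 to 0.30 for Ssc.19381.1.A1_at. At 120d against 65dpc it was -1.64 to 0.30 for GBP2, again positive without 65dpc replicate 3, -0.21 to 0.43 for EIF2AK2 and -0.39 to 0.18 for PGM3. At 120d against 60d it was -0.043 to 0.14 for PDZRN3, -0.0794 to 0.31 for ZNF277, -0.45 to 0.0023 for CAST, -0.19 to 0.37 for EIF2AK2, -0.32 to 0.15 for PGM3 and -0.12 to 0.27 for SDC2.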
